A study of Mus musculus with 4 samples.

Results

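Ucp1, Ucp3 and Dio2 were followed in mouse epididymal white fat on 4 expression arrays, 1 for each group of mice. Of the 4 genes sought (Ucp1, Ucp2, Ucp3 and Dio2), 3 had a probe set with a single gene symbol in the array's annotation, out of 8251 genes so named. Ucp1 had 2 probe sets (99507_at and 161422_f_at), Ucp3 had 93392_at and Dio2 had 103438_at; Ucp2 is not analysed here. The control array held RNA pooled from male C57 BL6 mice of 3 to 4 months that the labels call controls and no more, and the other arrays held pools from male mice of the same strain and age after 1, 3 or 6 days of CL 316243 at 3 nmol/hr. CL 316243 is a drug that activates the β3-adrenergic receptor selectively; through this receptor noradrenaline acts on mouse fat cells. With 1 array of pooled RNA per group there was no replicate, no test was run and no p-value is given, and the sources used here do not say how many mice made a pool.

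The uncoupling proteins belong to the carrier family of the inner mitochondrial membrane. UCP1, the defining protein of brown and beige fat cells, lets protons return to the matrix without ATP synthesis, so that fuel oxidation gives heat. UCP3 is a close relative, abundant in skeletal muscle and brown fat, whose transport role is less settled. The deiodinase DIO2 converts the prohormone thyroxine to the active thyroid hormone triiodothyronine inside the cell, and in brown fat adrenergic signals through cyclic AMP induce it together with Ucp1.

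The proximal promoters of the 3 measured genes are shown because their transcripts were all brighter after treatment, and because cyclic AMP and nuclear receptor signals act through short elements that can be looked for in them. Each line is the 250 bases before the annotated start, 5′ to 3′ on the gene's strand, from RefSeq on GRCm38.p6; all 3 genes were matched by symbol. The windows are chr8:83290098-83290347 on the plus strand for Ucp1, chr7:100472741-100472990 on the plus strand for Ucp3 and chr12:90739039-90739288 on the minus strand for Dio2. Capitals mark TGACGTCA (the palindromic cyclic AMP response element), its core TGACG, and AGGTCA (a nuclear receptor half-site), searched on both strands.
Ucp1: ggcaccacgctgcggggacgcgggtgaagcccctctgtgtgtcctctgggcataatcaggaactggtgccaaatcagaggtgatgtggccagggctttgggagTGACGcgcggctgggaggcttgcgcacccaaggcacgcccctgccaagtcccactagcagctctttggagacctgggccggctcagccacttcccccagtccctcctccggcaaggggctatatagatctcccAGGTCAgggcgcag
Ucp3: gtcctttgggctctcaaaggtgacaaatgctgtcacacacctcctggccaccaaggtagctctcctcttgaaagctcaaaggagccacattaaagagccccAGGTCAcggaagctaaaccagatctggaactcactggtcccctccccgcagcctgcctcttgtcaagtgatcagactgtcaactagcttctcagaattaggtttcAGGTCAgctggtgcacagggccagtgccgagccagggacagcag
Dio2: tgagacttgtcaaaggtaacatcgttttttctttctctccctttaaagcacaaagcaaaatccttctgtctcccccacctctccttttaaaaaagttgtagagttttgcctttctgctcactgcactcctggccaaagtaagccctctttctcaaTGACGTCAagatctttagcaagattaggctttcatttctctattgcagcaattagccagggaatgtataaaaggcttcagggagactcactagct

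The Dio2 window held the whole palindrome TGACGTCA, from 95 to 88 bases before the start; the core TGACG lies inside it on both strands. The palindrome was present in 1.55% of 32851 promoter windows of this length. The Ucp1 window held the core TGACG at 147 to 143 bases before the start, without the palindrome, and 1 AGGTCA at 14 to 9 bases. The Ucp3 window held 2 copies of AGGTCA, at 149 to 144 and 44 to 39 bases, and no TGACG. The core was present in 17.8% and AGGTCA in 14.0% of all windows. The direct repeat AGGTCANAGGTCA, to which PPAR and RXR pairs bind, was in 0.0335% of all windows and was not found in these 3. These matches describe letters in short windows; the known distal enhancer of Ucp1 lies outside the stretch shown.

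Between 59.9% and 60.2% of the 12422 probe sets per array lay above a floor of 173 intensity units, and 8 of 8 measured adipocyte markers did so on every array. The summed intensity of those 8 was 178800 in control and 101012, 153738 and 188202 after 1, 3 and 6 days. At day 1, 4 of the 8 (Lep, Slc2a4, Pparg and Adipoq) were at least 2-fold lower than control and 0 higher. Of all genes, 6.35% were lower and 5.71% higher. The median log2 change of the 8 was -0.97 on that day. The pools also differed in markers of other cells. The summed intensity of 20 macrophage markers was 43566 in control and 131093, 114680 and 59696 after 1, 3 and 6 days. That of 14 neutrophil markers was 8359 in control and 100819, 9648 and 4821. S100a8, S100a9, Il1b and Lcn2 make up most of the neutrophil sum at day 1. On that day 7 of the 14 were at least 2-fold higher than control and 2, Elane and Prtn3, lower, against 5.71% and 6.35% of all genes. The epididymal gene Lcn5 read 3321 in control and 63, 7 and 8029 after 1, 3 and 6 days, and Adam7 read 2654, 200, 251 and 1846, so that the control and day 6 pools stood apart from the others. The summed level of the 13 testis and epididymis markers ran 8033, 10343, 2435 and 12803 over the 4 arrays. Prm2, Ldhc, Insl3, Hsd3b6 and Cyp17a1 were at or below the floor on each. Most of the day 1 sum is a single gene, Star, which read 7991 there and 18 in control. Fewer cells of a type and less RNA per cell cannot be told apart in such samples. The error of a log2 change, estimated from the disagreement of 2 probe sets of one gene over 518 genes, came to 0.35, 0.27 and 0.26 in the comparisons of days 1, 3 and 6 with control, so that 3 errors come to 2.07-fold, 1.74-fold and 1.73-fold. It holds no variation between animals. Dim probe sets vary more: between days 3 and 6, 95% of probe sets lay within 2.10-fold where their mean was 1 to 2 times the floor, and within 2.20-fold at 2 to 4 times.

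Ucp1 showed the largest change of the 3 genes, with its highest level at day 1. Its probe set 99507_at gave -14 intensity units in control, which is background, and 3056, 1501 and 1190 units after 1, 3 and 6 days of CL 316243. All 3 treated arrays lay far above the floor and the control array below it. Against the floor, Ucp1 was at least 17.7-fold higher at day 1 than in control, at least 8.68-fold higher at day 3 and at least 6.88-fold higher at day 6. These bounds depend on the floor, so Ucp1 is given no rank among the probe sets. Of the 4955 probe sets that were at or below the floor in control, 3.55% were at least 2-fold above it at day 1, 1.55% at day 3 and 0.464% at day 6.

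The level of Ucp1 was highest on the array of day 1 and lower on the later ones. It stood at 1501 at day 3 against 3056 at day 1, which is 2.04-fold lower; 4.10% of probe sets were at least 2-fold lower between these arrays. Day 6, at 1190, was 1.26-fold below day 3, less than the 1.72-fold of 3 errors, and 2.57-fold below day 1, where 5.98% of probe sets were at least 2-fold lower. The other probe set, 161422_f_at, carries the suffix that Affymetrix gives to probe sets whose probes can match a family of sequences. It read 41 in control and 553, 348 and 142 after 1, 3 and 6 days. The order of the treated arrays was the same as for 99507_at, but the day 6 value was below the floor together with control. Against control it was at least 3.19-fold higher at day 1 and at least 2.01-fold at day 3, and no fold is given for day 6. Day 6 was at least 2.01-fold below day 3 by this probe set, as were 1.82% of all probe sets. The bounds for Ucp1 are thus larger by its brighter probe set, and with this floor the persistence to day 6 rests on that probe set. With a 25th percentile floor (58 units), 161422_f_at too was higher at day 6 than in control, by a log2 change of at least 1.29. Both of those values lie below the floor used here.

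**Figure D1:**
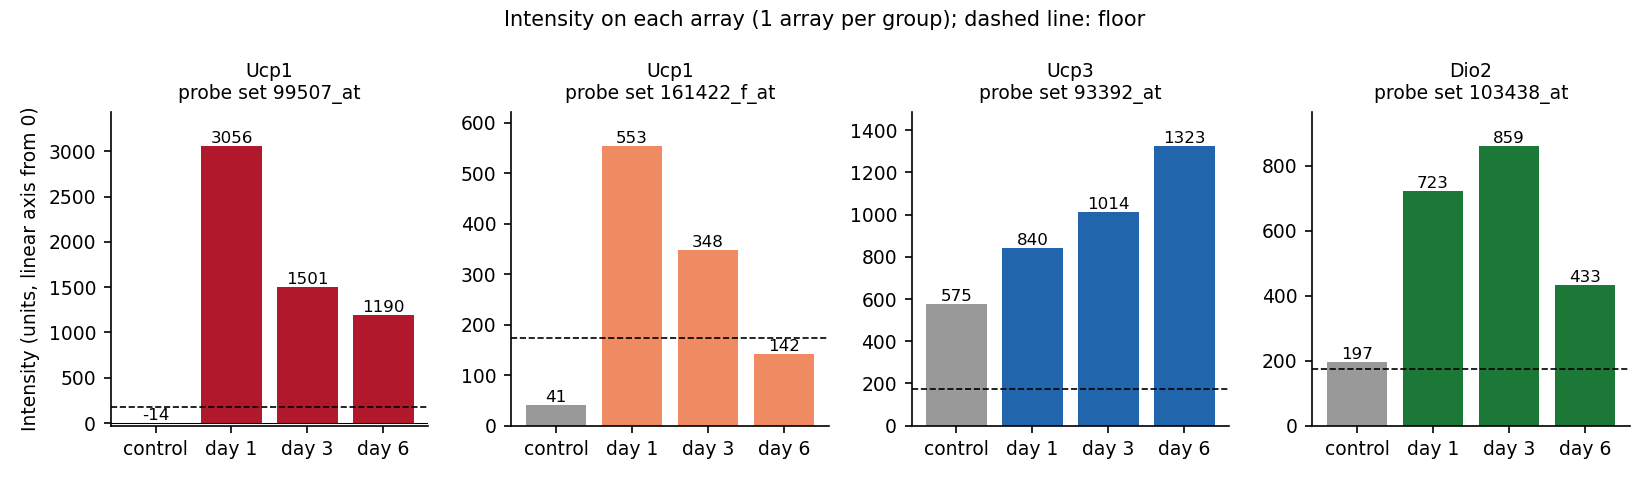
Intensity (units, linear axes that differ between panels) of the 4 probe sets on the 4 arrays, 1 array per group, with the floor of 173 units as a dashed line. Ucp1 is tallest at day 1 by both probe sets (3056 and 553), Ucp3 is tallest at day 6 (1323) and Dio2 at day 3 (859).

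Dio2 was above the floor on every array. Its intensity was 197 in control, close to the floor, and 723, 859 and 433 after 1, 3 and 6 days. Each treated array was brighter than control, and day 6 was the dimmest of the 3. Dio2 was 3.67-fold higher at day 1 than in control (log2 change 1.88 with an error of 0.35), 4.36-fold at day 3 (2.12 with an error of 0.27) and 2.20-fold at day 6 (1.14 with an error of 0.26). Larger rises were seen in 208, 41 and 106 of the 12422 probe sets at these days. Among the 1466 probe sets that lay between 1 and 2 times the floor in control, as Dio2 did, 9.28%, 5.39% and 3.34% were at least 2-fold higher at days 1, 3 and 6. Between treated arrays, day 3 was 1.19-fold above day 1 and day 6 was 1.67-fold below day 1, less than 3 errors (1.89-fold and 2.09-fold). Day 6 was 1.98-fold below day 3, beyond 3 errors but inside the spread of dim probe sets given above. At day 6 against control, the mean behind the 2.20-fold difference is under 2 times the floor. That difference stands beside the 2.10-fold that covers 95% of such probe sets between days 3 and 6. The spread was not computed against control.

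Ucp3 was brightest at day 6. Its intensity was 575 in control and 840, 1014 and 1323 after 1, 3 and 6 days, so that each later array was brighter than the one before. Against control, Ucp3 was 1.46-fold higher at day 1 and 1.76-fold at day 3, below the 2-fold line, and 2.30-fold higher at day 6 (log2 change 1.20 with an error of 0.26). At day 6, 89 probe sets showed a larger rise. Of 1648 probe sets between 2 and 4 times the floor in control, 6.49%, 3.16% and 1.52% were at least 2-fold higher on days 1, 3 and 6. The steps between neighbouring arrays, 1.21-fold for day 3 over day 1 and 1.30-fold for day 6 over day 3, stayed below 3 errors, as did the 1.57-fold of day 6 over day 1.

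Counted by probe set, 3 of 4 were at least 2-fold higher than control at day 1, against 5.06% of all probe sets. At day 3 the count was 3 of 4, against 2.52%, and at day 6 it was 3 of 4, against 1.26%. None of the 4 was lower on any day, where 5.31%, 2.13% and 1.18% of all probe sets were. The probe set that fell short was that of Ucp3 at days 1 and 3 and 161422_f_at of Ucp1 at day 6. The 3 comparisons share the control array.

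**Figure D2:**
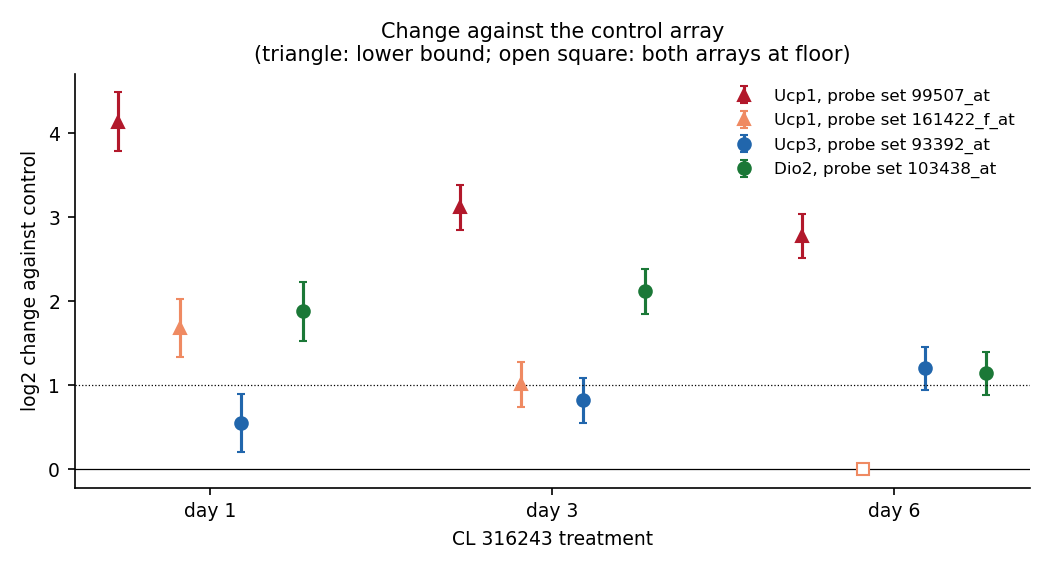
Change on the log2 scale of each probe set against the control array, by day of treatment. Bars are the error between probe sets of one gene (0.35, 0.27 and 0.26 on days 1, 3 and 6). Triangles are lower bounds because control was at the floor, the open square has both arrays at the floor, and the dotted line is 2-fold. The error came from probe sets above the floor on all arrays, so the bars on triangles do not give the precision of those bounds. Ucp1 by its brighter probe set lies highest on each day, and Ucp3 and Dio2 meet at day 6 (1.20 and 1.14).

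Skeletal muscle, where Ucp3 is abundant, was followed by its own markers, which did not move alike. Of 15 muscle markers measured, Ckm, Mb, Myh1, Myh2, Tnnt3 and Tnni2 were at or below the floor on all 4 arrays. The summed intensity of the 15 was 8838 in control and 7349, 7776 and 7963 after 1, 3 and 6 days, lower on each treated array while Ucp3 was higher; Myl1 and Acta1 make up much of that sum. The myosin light chain gene Myl1 read 3864 in control and 1090, 3238 and 3645 on the treated arrays, and the muscle actin gene Acta1 read 1492, 2379, 212 and 168 over the 4 arrays. Some other markers were brighter on each treated array, as Ucp3 was. Myoz1, which encodes a protein of the muscle Z-disc, read 345 in control and 524, 589 and 656 after 1, 3 and 6 days, log2 changes of 0.60, 0.77 and 0.93 beside 0.55, 0.82 and 1.20 for Ucp3, and in the same order. Mylpf read 199, 212, 213 and 270 and Pvalb 1897, 2199, 2519 and 2039. Their log2 changes were 0.09, 0.10 and 0.44 for Mylpf and 0.21, 0.41 and 0.10 for Pvalb, all below 3 errors. The other probe set of each lay below the floor on every array. These markers were named after their values were seen, and the part of muscle RNA in the Ucp3 values was not tested.

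Among the other genes of brown and beige fat, Cox8b, Cidea and Cox7a1 were higher on days 3 and 6. Of 15 measured genes of that list, 0 were at least 2-fold higher and 1 was lower at day 1, against 5.71% and 6.35% of all genes. The day 1 counts depend on the floor: with a 25th percentile floor, 2 were higher and 2 lower. At day 3, 3 were higher and 0 lower, against 2.88% and 2.47%, and at day 6 again 3 were higher and 0 lower, against 1.31% and 1.24%. The median log2 change of the list was 0 on each day, as it was over all genes, since 8 of the 15 were at or below the floor on every array. Those 8 include Ppargc1a, the coactivator of mitochondrial biogenesis and of Ucp1, and Zic1 and Lhx8, which mark classical brown fat depots.

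The 3 genes that were higher are Cox8b, Cox7a1 and Cidea. Cox8b, a cytochrome oxidase subunit of brown fat and heart, read 1002 in control and 815, 9551 and 15473 after 1, 3 and 6 days. It was thus slightly below control at day 1, when Ucp1 was at its brightest, and 9.54-fold and 15.4-fold above control on days 3 and 6; its other probe set kept the same order (304, 212, 1816 and 3714). Cidea, which coats lipid droplets in brown fat cells, read 266, 178, 1312 and 947 over the same arrays, 4.93-fold and 3.56-fold higher on days 3 and 6. Cox7a1, another cytochrome oxidase subunit, read 56, 318, 966 and 954, at least 1.84-fold, 5.59-fold and 5.51-fold higher on days 1, 3 and 6. Ebf2, a transcription factor of brown fat precursors, was the gene that was lower, at 349 at day 1 against 1146 in control. Ucp1 and these genes therefore stood in opposite order between days 1 and 3: Ucp1 was lower at day 3, and Cox8b, Cidea and Cox7a1 were higher.

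Among known regulators of Ucp1, Cebpb was higher and Nrip1 lower at day 1. Of 26 measured, 2 were at least 2-fold higher and 6 lower at day 1, 1 and 1 at day 3, and 3 and 0 at day 6. Over all genes the shares were 5.71% and 6.35%, 2.88% and 2.47%, and 1.31% and 1.24%. The count of higher genes at day 1 and both counts at day 3 are thus near the shares of all genes. Cebpb, a factor that activates the Ucp1 promoter under cyclic AMP, read 15215 at day 1 against 3550 in control, 4.29-fold higher, and was within 2-fold of control on days 3 and 6 (4878 and 4824). Nrip1, a corepressor that holds Ucp1 down in white fat, read 1750 in control and 214, 754 and 1435 on the treated arrays, which is 8.18-fold lower at day 1 and 2.32-fold lower at day 3. Its lowest array was the one on which Ucp1 was brightest. Pparg, the master factor of fat cell differentiation and also one of the adipocyte markers above, was 3.74-fold lower at day 1 (1303 against 4874).

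The thyroid hormone receptor gene Thra was 2.96-fold lower at day 1 (1484 against 4395), but its dimmer probe set read 304 against 209. Cebpa, Rb1 and Ncoa1, named after their values were seen, were 2.02-fold, 2.18-fold and 2.14-fold lower at day 1. At day 6 the genes that were higher were Ppara, Irf4 and Nr1d1. Irf4, a factor that works with PGC-1α on thermogenic genes and named after its values were seen, read 51, -10, 244 and 492 over the 4 arrays and was at least 2.84-fold higher at day 6.

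Around Dio2, 24 genes of thyroid hormone transport, activation and action were measured. At day 1, 1 was at least 2-fold higher and 4 were lower, at day 3 1 was higher and 0 lower, and at day 6 0 were higher and 2 lower. Against 5.71% and 6.35% of all genes at day 1, 2.88% and 2.47% at day 3, and 1.31% and 1.24% at day 6, the single higher gene at day 1 and at day 3 is near the share of all genes. The related deiodinase gene Dio1 was at background on each array (-3, -11, 52 and 37), and so was the receptor gene Thrb (53, 131, -49 and 29). Wsb1 encodes the ubiquitin ligase adaptor that marks DIO2 protein for breakdown. It read 481 in control and 1350, 986 and 444 after 1, 3 and 6 days, 2.80-fold and 2.05-fold higher on days 1 and 3 and back at the control level on day 6. Dio2 was still 2.20-fold above control on that array.

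Thrsp, a lipogenic gene that thyroid hormone induces, was 15.5-fold lower at day 1 (2214 against 34364) and within 2-fold of control on days 3 and 6. The amino acid transporter gene Slc7a5, whose product also carries thyroid hormone, read 917 in control and 947, 609 and 409 on the treated arrays, 2.24-fold lower at day 6.

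**Figure D3:**
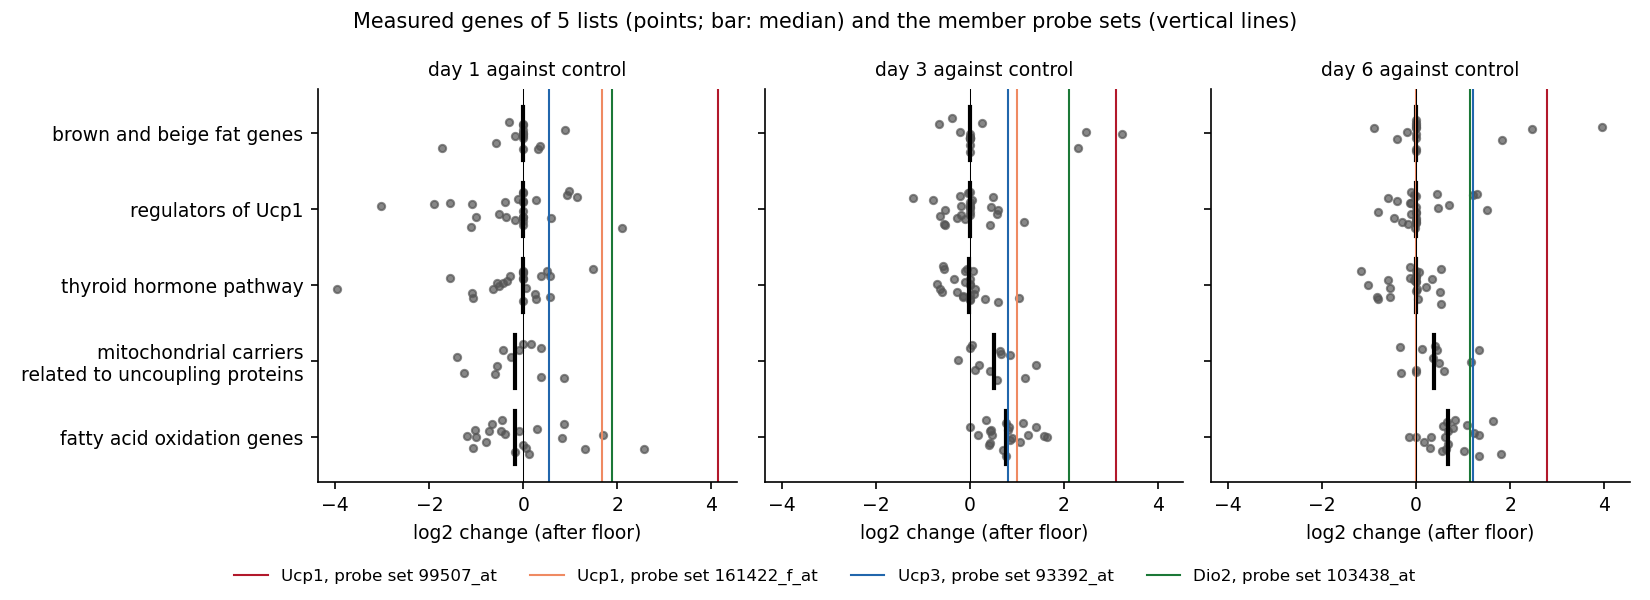
Change on the log2 scale against control of the measured genes of 5 lists (points, with the list median as a black bar) on days 1, 3 and 6, with the 4 probe sets of Ucp1, Ucp3 and Dio2 as vertical lines. The Ucp1 line lies right of all the listed genes at day 1, where it is a lower bound, and on days 3 and 6 Cox8b (3.25 and 3.95) lies right of it, which gives no order because the Ucp1 values there are lower bounds too.

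Other mitochondrial carriers, the family to which the uncoupling proteins belong, had a median below 0 at day 1 and above 0 later, and so did the fatty acid oxidation genes. Of 12 measured carriers, 0 were at least 2-fold higher and 2 lower at day 1, and 2 were higher and 0 lower at day 3 and again at day 6. Among all genes, 5.71% were higher and 6.35% lower at day 1, 2.88% and 2.47% at day 3, and 1.31% and 1.24% at day 6. Their median log2 change was -0.19, 0.51 and 0.38 on these days, and 0 over all genes. Slc25a10, the dicarboxylate carrier, read 7103 in control and 2656, 16140 and 16002 on the treated arrays, and the citrate carrier gene Slc25a1 read 12294, 5125, 19122 and 18511. Slc25a20, which brings acylcarnitines into mitochondria, was within 2-fold at day 1 (5655 against 3105) and 2.66-fold and 2.53-fold higher on days 3 and 6.

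Fatty acid oxidation genes, which supply the electrons that UCP1 dissipates, had median log2 changes of -0.17, 0.78 and 0.67. Of 21 measured, 3 were at least 2-fold higher and 4 lower at day 1, 6 and 0 at day 3, and 7 and 0 at day 6. For all genes these shares were 5.71% and 6.35%, 2.88% and 2.47%, and 1.31% and 1.24%. Acadl, a long-chain acyl-CoA dehydrogenase, read 2164, 3811, 6729 and 6739 over the 4 arrays. Pdk4, whose kinase turns pyruvate dehydrogenase off, was 3.23-fold, 3.00-fold and 3.47-fold higher on days 1, 3 and 6, and the thioesterase gene Acot1 at least 5.90-fold and 2.35-fold higher on days 1 and 3.

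Genes with like patterns were sought among the 1238 genes that passed 2-fold on any day and reached 2 times the floor, by the Euclidean distance between their 3 log2 changes against control and those of each member. For Ucp1 the changes are lower bounds set by the floor, so the distances hold for this floor alone and other floors were not tried. The nearest 5 were Dbp at a distance of 1.48, Saa3 at 1.63, Adam8 at 1.74, Mpeg1 at 1.83 and Ppif at 1.86. Dbp, an output gene of the circadian clock, shared the lasting difference (1107, 1462 and 1345 on the treated arrays against 161 in control). The acute phase gene Saa3, the leukocyte protease gene Adam8, the macrophage gene Mpeg1 and the mitochondrial cyclophilin gene Ppif shared the maximum at day 1.

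For Ucp3 the nearest 5 were Ppara at 0.22, Psma1, Glns-ps1 and Mbd1 at 0.24 each, and Jkamp at 0.31, all within about the error of a change. Ppara encodes the fatty acid-sensing nuclear receptor PPARα. It read 382 in control and 574, 578 and 877 after 1, 3 and 6 days, 2.29-fold higher at day 6, where Ucp3 was 2.30-fold higher.

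For Dio2 the nearest were Ms4a6c at 0.32, Lgmn at 0.37, Cd300c2 at 0.40, Chchd10 at 0.47 and Adssl1 at 0.51. Ms4a6c and Cd300c2 encode surface proteins of myeloid cells and Lgmn a lysosomal protease; Chchd10 encodes a mitochondrial protein and Adssl1 an adenylosuccinate synthase. Of 20 macrophage markers, 12 were at least 2-fold higher at day 1, 11 at day 3 and 2 at day 6, and 0 were at least 2-fold lower. Of all genes, 5.71%, 2.88% and 1.31% were at least 2-fold higher on these days. Not all of these markers had the pattern of Dio2. Mmp12 was highest at day 6 (log2 changes 0.51, 0.67 and 2.71), and Ptprc passed 2-fold at day 1 alone (1.92, 0.28 and -0.58). Cd68 read 8718, 10439 and 2867 on the treated arrays against 1913 in control. The part of these cells in the Dio2 and Ucp1 values was not tested.

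**Figure D4:**
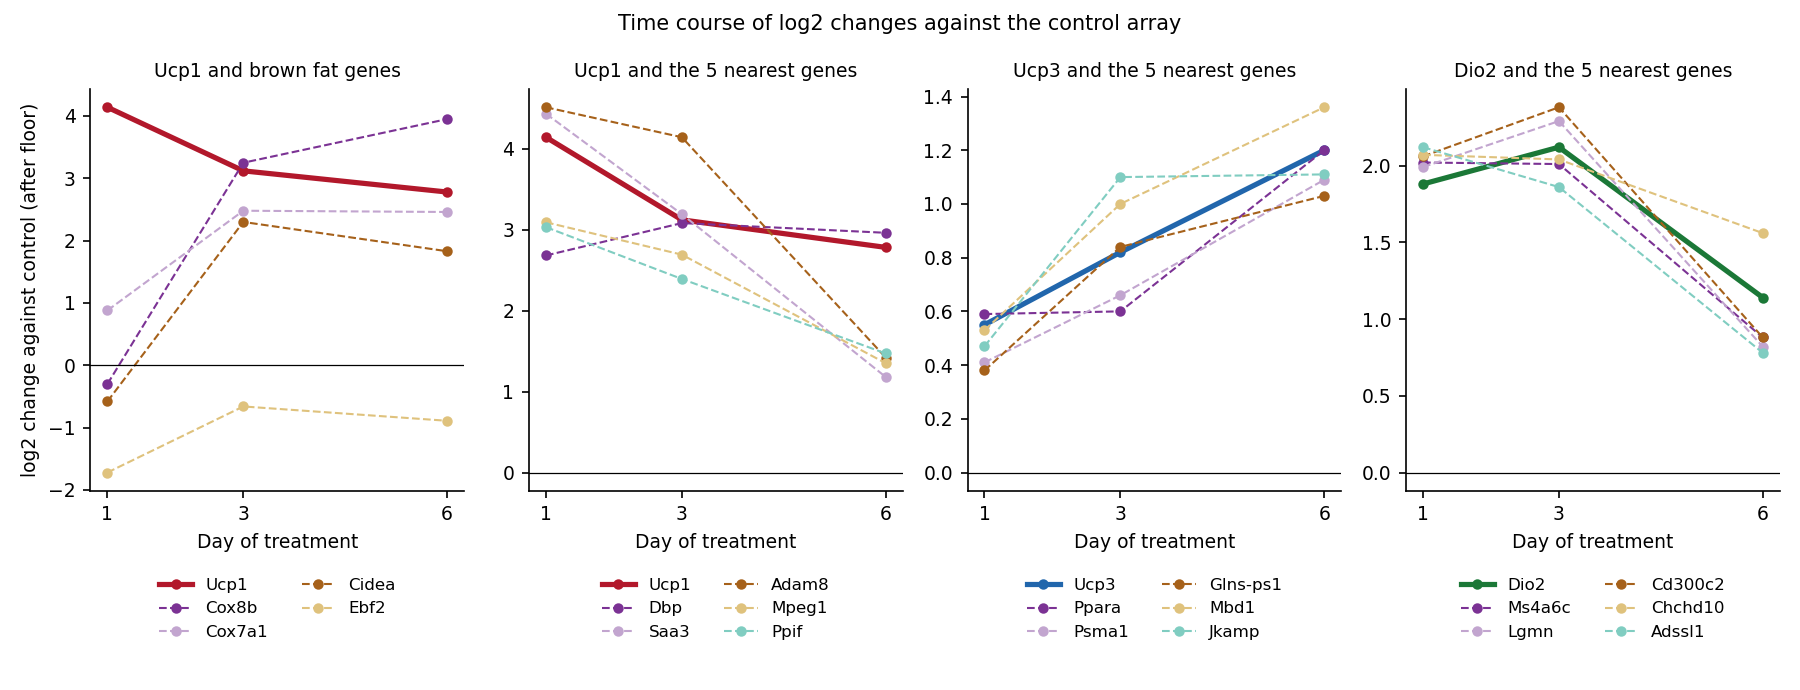
Time course of log2 changes against control, with the day of treatment on the horizontal axis, for Ucp1 beside the 4 named brown fat genes, and for Ucp1, Ucp3 and Dio2 each beside its 5 nearest genes (dashed); vertical scales differ between panels. Ucp1 starts high and comes down while Cox8b and Cidea start below 0. Cox7a1 starts at 0.88, a lower bound set by the floor. The Ucp3 and Dio2 neighbours lie close to their gene.

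Dbp was among the 5 genes nearest to Ucp1, first by Euclidean distance, and behind Ppif, Adam8 and Mpeg1 by the largest difference. Genes of the circadian clock, Dbp included, were therefore looked at, a list chosen after these values were seen. Of 14 measured among 15 sought, 5 were at least 2-fold higher and 1 lower at day 1, 3 higher and 2 lower at day 3, and 5 higher and 1 lower at day 6. Dbp, which prompted the list, is itself among the higher genes on each day. The shares over all genes were 5.71% and 6.35%, 2.88% and 2.47%, and 1.31% and 1.24%. Nr1d1, which encodes the clock repressor REV-ERBα, also a repressor of Ucp1, read 1832, 1830 and 2026 on the treated arrays against 824 in control. Its paralog Nr1d2 read 1135, 1294 and 1414 against 326. Arntl, which encodes the activator BMAL1 and peaks in antiphase to them, read 167, 265 and 264 against 999, at least 5.77-fold lower at day 1. All 3 treated arrays differed from control in the same direction in these genes, which were named after their values were seen. Other clock genes differed among the treated arrays: the log2 changes on days 1, 3 and 6 were 1.63, 0.77 and -0.07 for Bhlhe40, -0.22, 0.99 and 1.01 for Tef, 1.79, 0.80 and 1.41 for Per1 and 0.30, -1.04 and 0.11 for Nfil3. The part of clock phase in the Ucp1, Ucp3 and Dio2 values was not tested. The sources used here give no hour of tissue collection, and clock phase and treatment cannot be told apart.

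**Figure D5:**
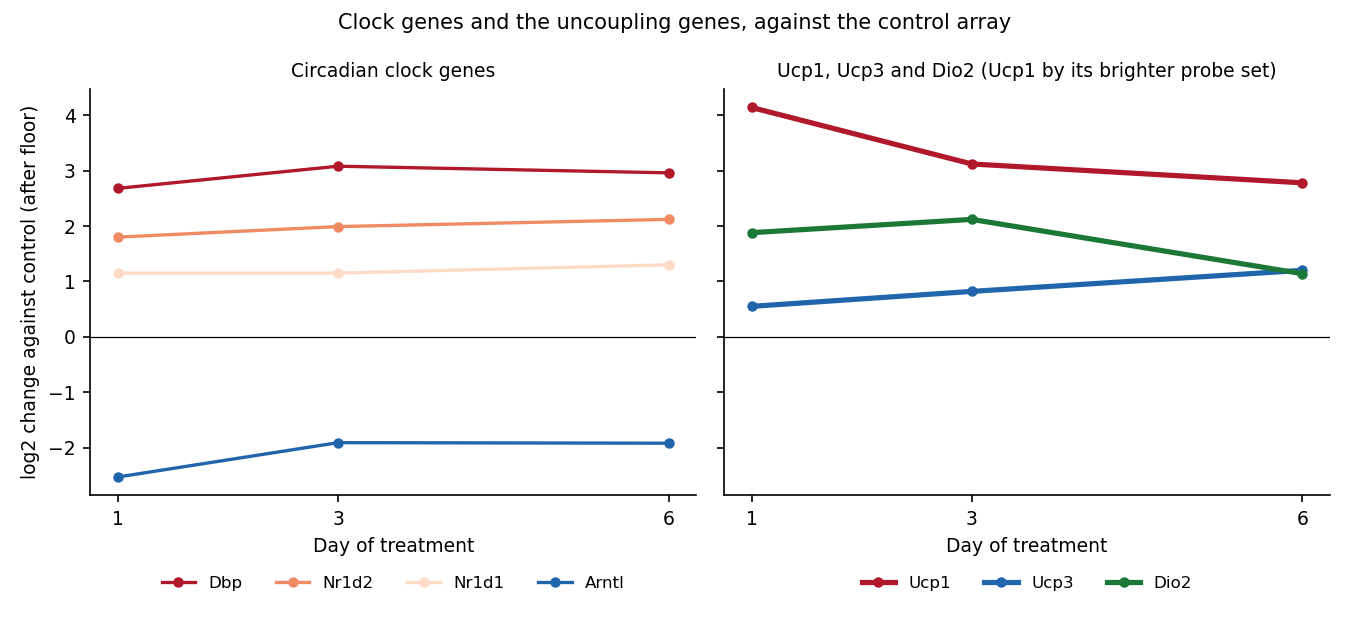
Change on the log2 scale against control by day of treatment, for 4 clock genes (left) and for Ucp1, Ucp3 and Dio2 (right). Dbp, Nr1d2 and Nr1d1 lie above 0 and Arntl below 0 on days 1, 3 and 6; Ucp1 and Dio2 are lower, and Ucp3 higher, at day 6 than at day 1.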

How the data were processed

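The authors deposited 1 linear intensity per probe set for each of 4 arrays, whole numbers of which 12.2% to 12.4% per array are at or below 0; the sources used here do not state the software, background step or normalization behind them. Each array's intensities were scaled to a common mean of values between the 2nd and 98th percentiles (factors 0.999 to 1.001), set to no less than their 40th percentile (173 units, the floor) and put on the log2 scale. The 66 control probe sets were used for scaling and left out of all counts, which leaves 12422. A probe set or gene was counted past 2-fold; where the dimmer value was at the floor the fold is a lower bound. Printed intensities are scaled and not floored.

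Symbols came from the array's annotation: 1 symbol for 10833 probe sets, several for 396 and no entry for 1193. A gene of a list is represented by its brightest probe set. The error is the scaled median absolute deviation of the difference between 2 probe sets' log2 changes, divided by the square root of 2, over genes with exactly 2 probe sets, both above the floor on all arrays. Named genes are all members, the up to 4 most changed genes of each list past 2-fold whose brighter value reached 2 times the floor (346 units), and the 5 nearest genes of each member. The members and lists were chosen with earlier results of these data known. The scaling and counting were tested on simulated data with known folds. These folds were put only into probe sets brighter in control than any of the members, so levels near the floor were not covered. Alternatives were floors at the 25th and 60th percentiles, a generalized log without floor, no scaling, quantile normalization and thresholds of 1.5-fold and 3-fold. Python 3.11.15, numpy 2.4.6 and pandas 2.3.3 were used.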

Additional observations from a re-analysis of the deposited data

How the results depend on the processing

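The number of the 4 probe sets past 2-fold was 3 on each day, and it stayed within 1.5 times of that in 18 of 21 recomputations. Under a 60th percentile floor (537 units) it was 1 at day 1 and 1 at day 3, since that floor lies above the control level of Dio2 and near the brightest value of 161422_f_at. With a 3-fold threshold it was 1 at day 6, the brighter Ucp1 probe set. At day 6 it was 4 with a 25th percentile floor and with the generalized log, where 161422_f_at passed 2-fold too. Single log2 changes moved by more than the error in 20 of 60 recomputations and changed direction in 0. These were the bounds of Ucp1 under other floors or none (4.14 at day 1 turned into 5.72 under a 25th percentile floor and 2.51 under a 60th percentile one) and Dio2 under the 60th percentile floor, where its changes were 0.43, 0.68 and 0 on days 1, 3 and 6. Ucp3 moved under none. Scaling and quantile normalization moved no change beyond the error. Counts in the 5 lists moved by over 1.5 times in 13 of 90. With the largest absolute difference as the measure, 5 of 5 nearest genes of Ucp1 and 4 of 5 of Ucp3 and of Dio2 were shared. No paired analysis was possible because each group has 1 array. Depth is not defined for arrays; their number limits the precision.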

Other observations

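Lcn5, and Star by its brighter probe set, were bright on some arrays and at background on others. Lcn5, a lipocalin of the epididymis, read 63, 7 and 8029 after 1, 3 and 6 days, against 3321 in control. Its difference between days 6 and 3 is larger than that of Ucp1, Ucp3 or Dio2, and its order over the arrays matches none of them. Star, a cholesterol carrier gene of steroid-making cells, read 7991 at day 1 against 18 in control by its brighter probe set. It shared the maximum at day 1 with Ucp1. By that probe set Star stood at -30 at day 6, where Ucp1 by its brighter probe set was at 1190. The other Star probe set read 177, 1398, 365 and 277 over the 4 arrays, above the floor on each and also highest at day 1. The other markers of steroid-making cells, Insl3, Hsd3b6 and Cyp17a1, were at or below the floor on all 4 arrays.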
